A study of Mus musculus and Rattus norvegicus with 79 samples.

Results

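The regions described here are 12771 sites in mouse liver chromatin at which a glucocorticoid receptor (GR) peak was called when chromatin of GR-deleted livers served as the control, and at which no peak was called when input DNA served as the control. They were chosen by position alone: a peak of the list called against knockout chromatin (18543 peaks) was kept when it overlapped no peak of the list called against input (23683 peaks) by 1 bp or more. They make up 68.9% of the list called against knockout chromatin. The other 5772 peaks of that list overlap an input-control peak and are called shared peaks below, the 12771 are called CRE-control-only peaks, and the 17912 input-control peaks that overlap no peak of the knockout-control list are called input-only peaks. One more deposited list, named as concordant between replicates, held exactly the 5772 shared peaks, with the same coordinates and in the same order, and held 0 of the CRE-control-only peaks.

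GR is a nuclear receptor that is held in the cytoplasm until it binds a glucocorticoid, and then enters the nucleus and binds DNA. As a dimer it binds an imperfect palindrome made of a pair of hexamers on either side of a short spacer, and it also binds beside other transcription factors such as C/EBP and FOXA proteins. In liver it is known for activating genes of gluconeogenesis and amino acid breakdown in the fasted state, and for its own feedback genes such as Fkbp5, Tsc22d3 and Per1.

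All livers came from mice kept on a light/dark cycle and trained to eat at night. For chromatin immunoprecipitation (ChIP), GR was pulled down with a mixture of 3 antibodies from unfed livers at ZT10, 10 h after lights on. There were 4 ChIP libraries, 1 of each kind and thus without replicates: GR and input from untreated C57BL/6 mice, and GR from Nr3c1fl/fl mice (floxed GR gene) injected 10 days before with AAV-tbg-GFP or with AAV-tbg-CRE. The tbg promoter drives the virus in hepatocytes, so the other liver cells of CRE mice keep the GR gene. RNA came from both kinds of injected mice at 6 times, of which ZT10 and ZT12 were without food and the 4 later ones (ZT13, ZT14, ZT18, ZT22) with food, 3 livers in each of the 12 groups. RNA also came from C57BL/6 mice at ZT10 without food and at the same 4 later times with and without food, 3 livers in each of the 9 groups. The labels do not say which GR library was set against which control or with what threshold, so the 2 lists may differ in mice as well as in control. The descriptions of the C57BL/6 GR and input libraries carry the same pair of library numbers in opposite order, which cannot be settled from the labels.

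Total counts ran from 34635202 to 78763549 per library in Nr3c1fl/fl livers and from 23870218 to 91765919 in C57BL/6 livers, summed over transcript rows. The 1 row kept for each gene held 13872117 to 40384655 and 13601485 to 52703467 of them. Levels are in CPM, these counts scaled to a common library size with TMM factors. Nr3c1, the gene for GR, had 241, 196 and 234 CPM in the GFP livers at ZT10 and 115, 137 and 147 in the CRE livers. The groups did not overlap, and over the 6 times Nr3c1 was lower in CRE livers by a log2 difference of -0.63 (SE 0.0569, edgeR adjusted p = 1.85e-09). The 8 hepatocyte markers measured summed to 52790 to 78910 CPM in GFP livers and 47620 to 69160 in CRE livers. Marker sums of Kupffer cells were 157 to 357 and 140 to 356 CPM in the same order. In whole liver, fewer cells of a type and less RNA per cell cannot be told apart.

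RefSeq promoter windows (250 bases before to 50 after each start, build GRCm38.p6, numbered as mm10) gave the sequence under those peaks that lie at a gene start. The bases below lie before the start and under a peak, read 5′ to 3′ on the strand of the gene, and capitals mark matches to any of the 11 motifs searched, which are spelled out below. The first set is the promoters of the genes singled out later, chosen for their expression or their number of peaks, that a CRE-control-only peak covers by 40 or more bases before the start. They are Sdf2l1 (chr16:17132384-17132543, minus strand), Mrpl34 (chr8:71464676-71464847, plus strand) and Gpr39 (chr1:125676860-125676995, plus strand).

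Sdf2l1: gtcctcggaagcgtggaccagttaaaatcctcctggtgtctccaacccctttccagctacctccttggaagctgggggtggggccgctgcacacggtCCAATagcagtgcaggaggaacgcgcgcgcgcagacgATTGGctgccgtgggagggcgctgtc

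Mrpl34: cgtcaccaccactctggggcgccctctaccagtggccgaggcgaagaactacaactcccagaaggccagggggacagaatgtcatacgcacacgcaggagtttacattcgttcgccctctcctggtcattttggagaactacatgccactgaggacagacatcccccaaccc

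Gpr39: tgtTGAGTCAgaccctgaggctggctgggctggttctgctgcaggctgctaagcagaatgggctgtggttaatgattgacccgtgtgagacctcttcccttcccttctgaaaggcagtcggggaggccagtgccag

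The Sdf2l1 stretch has 63.8% G and C, 12 CpG pairs and 2 CCAAT boxes, 1 on each strand. The Mrpl34 stretch has 57.6% and 8 CpG pairs, and the Gpr39 stretch 58.1% and 2 CpG pairs. Gpr39 holds 1 match to the AP-1 letters, and Mrpl34 holds no match to any motif searched. None of the 3 holds a loose GR site, the palindrome GNACANNNTGTNC in which N is any base. The second set shows the rare case of a CRE-control-only peak over a promoter with such a site, at Mterf2 (chr10:85128104-85128277, minus strand) and Pot1b (chr17:55712683-55712886, minus strand), chosen after the matches were seen. In both, the GR hexamer AGAACA also matches on the other strand, overlapping the loose site. Mterf2 also holds a CCAAT box and Pot1b a pair of them that overlap, as shown in capitals.

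Mterf2: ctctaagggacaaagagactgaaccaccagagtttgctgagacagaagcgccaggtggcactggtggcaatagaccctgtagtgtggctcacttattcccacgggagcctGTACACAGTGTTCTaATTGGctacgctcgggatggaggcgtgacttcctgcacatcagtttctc

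Pot1b: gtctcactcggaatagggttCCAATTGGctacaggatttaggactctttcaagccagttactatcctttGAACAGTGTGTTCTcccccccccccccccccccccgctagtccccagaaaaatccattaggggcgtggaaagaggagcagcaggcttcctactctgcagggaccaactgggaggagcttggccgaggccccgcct

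The third set is 2 promoters under shared peaks: Mt1 (chr8:94178864-94179072, plus strand), a metallothionein gene and long-known GR target, and Serpina3n (chr12:104406494-104406702, plus strand), an acute-phase protease inhibitor. Both were picked from the 11 of 238 windows under shared peaks that hold a loose GR site (4.62%). The site is thus present by choice, and the pair does not stand for shared peaks at large. In both the loose GR site lies within the peak, in Mt1 an SP core also does, and in Serpina3n a GR hexamer also does.

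Mt1: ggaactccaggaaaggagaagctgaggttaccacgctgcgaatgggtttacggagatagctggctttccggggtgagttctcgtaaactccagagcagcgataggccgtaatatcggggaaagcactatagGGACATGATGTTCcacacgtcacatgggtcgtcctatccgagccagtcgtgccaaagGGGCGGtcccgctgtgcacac

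Serpina3n: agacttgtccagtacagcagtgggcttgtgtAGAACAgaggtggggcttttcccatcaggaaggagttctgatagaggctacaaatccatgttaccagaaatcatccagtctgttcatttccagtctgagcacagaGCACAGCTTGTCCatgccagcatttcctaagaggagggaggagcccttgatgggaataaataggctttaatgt

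Over all promoter windows, those under CRE-control-only peaks were rich in G, C and CpG and rarely held a GR palindrome. Of 32851 windows, 1612 (of 1471 genes) were overlapped by a CRE-control-only peak, 238 by a shared peak and 618 by an input-only peak. The median G and C content was 61.0% under CRE-control-only peaks, 49.7% under shared peaks, 49.7% under input-only peaks and 52.7% over all windows. The median number of CpG pairs per window was 22, 5, 6 and 7 in the same order. The SP core GGGCGG, a GC-box letter run bound by SP and KLF factors, was in 63.3% of windows under CRE-control-only peaks, in 23.5% under shared peaks, in 32.5% under input-only peaks and in 35.7% of all windows. Each motif was searched on both strands.

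The loose GR site was found in 6 of the 1612 windows under CRE-control-only peaks (0.372%), in 11 of 238 under shared peaks (4.62%), in 10 of 618 under input-only peaks (1.62%) and in 156 of all 32851 (0.475%). The 6 windows belong to Gm29924, Mterf2 (2 windows), Cisd3 and Pot1b (2 windows). The full palindrome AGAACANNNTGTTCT, which also counts as a loose site, was in 0 windows under CRE-control-only peaks and in 3 windows in all. A single hexamer AGAACA was in 11.5% under CRE-control-only peaks, 25.2% under shared peaks and 19.0% of all windows. These windows cover part of each peak at most, and no match says only that the letters are not in the window.

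Motifs of liver factors that often bind beside GR were also in a smaller share of windows under CRE-control-only peaks than under the other peaks. The C/EBP letters TTGCNNAA were in 8.81% of windows under CRE-control-only peaks, 27.7% under shared peaks, 24.6% under input-only peaks and 10.8% of all. The FOXA letters TGTTTAC were in 2.61%, 8.82%, 11.7% and 3.65% in that order, and the HNF4A letters CAAAGTCCA in 0.806%, 2.52%, 1.29% and 0.475%. C/EBP and FOXA letters were thus in a smaller share under CRE-control-only peaks than over all windows, and HNF4A letters, in 13 windows, in a larger one. The AP-1 letters TGANTCA were in 4.40%, 13.9%, 5.83% and 7.81%. The CCAAT box was in 38.5%, 37.4%, 39.8% and 37.4%, so the 4 sets were alike in it. The E-box CACGTG was in 10.7%, 10.1%, 8.25% and 7.15%, and a core of the CTCF motif in 0.558%, 0.420%, 0.162% and 0.326%. Windows are regions of single lists and no replicates, so these are counts without a test.

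**Figure D1:**
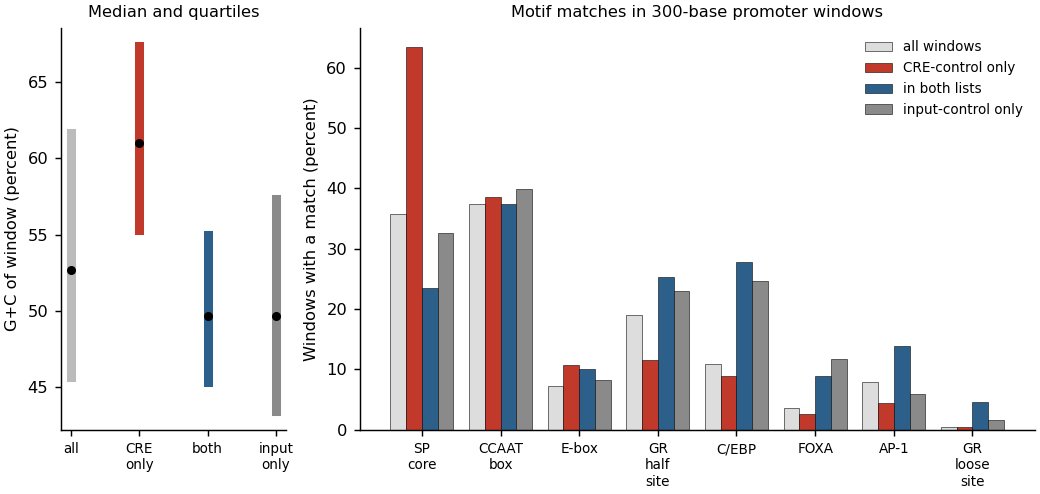
Left, G and C content of the RefSeq promoter windows (percent, point = median, bar = quartiles) for all windows and those overlapped by each class of peak. Right, percent of windows with a match to each motif on either strand; windows under CRE-control-only peaks stand at 63.3% for the SP core and at 0.372% for the loose GR site.

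A larger share of CRE-control-only peaks than of the other peaks lay at gene starts. On the chromosomes that the promoter table covers, 24.3% of CRE-control-only peaks (3012 of 12396), 8.65% of shared peaks (482 of 5575) and 8.08% of input-only peaks (1396 of 17274) lay within 1 kb of a RefSeq start. The median distance to a start was 10898 bp, 16827 bp and 20748 bp. The centres of CRE-control-only peaks were most frequent just past the start: 9.82% lay 0 to 500 bp downstream and 7.36% lay 0 to 500 bp upstream. For shared peaks the order was the opposite, with 1.90% downstream and 3.44% upstream, and for input-only peaks likewise, with 1.63% and 2.85%. Of the windows under CRE-control-only peaks 25.5% were paired with a start on the other strand, against 7.98% under shared peaks and 11.4% of all windows.

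**Figure D2:**
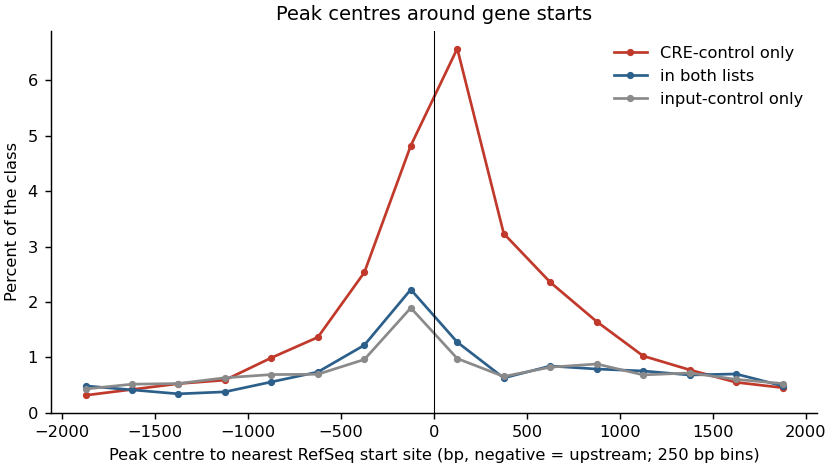
Percent of each class of peak whose centre falls in each 250 bp bin around the nearest RefSeq start (x axis, bp, negative upstream). The curve of CRE-control-only peaks is highest in the first bin after the start, and the curves of shared and input-only peaks in the last bin before it.

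A larger share of CRE-control-only peaks also lay inside genes. Of them 73.0% lay inside a gene interval, 23.9% outside but within 25 kb of one, and 3.09% farther than 25 kb. The same shares were 63.8%, 29.4% and 6.81% for shared peaks and 65.0%, 26.7% and 8.33% for input-only peaks. Tet3, a methylcytosine dioxygenase gene, held 7 CRE-control-only peaks within its interval, the most among the genes with no input-control peak within 25 kb. Gpr39, a zinc-sensing receptor gene, held 5, and Ripor1 and Dnajc17 held 4 each.

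Many CRE-control-only peaks lay near an input-control peak without touching it. The median distance to the nearest one was 11336 bp, with quartiles at 2347.5 and 37659 bp. Within 200 bp lay 908 of the 12771, within 1 kb 2210 (17.3%), within 25 kb 66.5%, and 8.83% lay farther than 100 kb. At the edge of the rule the nearest CRE-control-only peak was 1 bp away, and the smallest overlap among shared peaks was 1 bp. The median overlap of shared peaks was 144 bp, and 1649 of the 5772 overlapped by less than 50% of the peak. Peaks were all 209 bp wide in the knockout-control list and all 195 bp wide in the input-control list, so these widths carry no information on the sites.

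The deposited list is not sorted by coordinate, and CRE-control-only peaks gathered towards its end. They made up 5.60% of the first 1000 rows, 25.5% of the next 1000, 61.6% of rows 4001 to 5000, 80.0% of rows 10001 to 11000 and 88.4% of the last 543. Their median place was 11065, against 4366.5 for shared peaks. The files give no score or height and no source used here states how the rows were ordered. The share of CRE-control-only peaks within 1 kb of a start was 25% among the 56 in the first 1000 rows, 33.9% in rows 4001 to 5000 and 13.3% in the last 543 rows. In the same blocks the share of shared peaks was 10.2%, 7.30% and 12.3%.

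**Figure D3:**
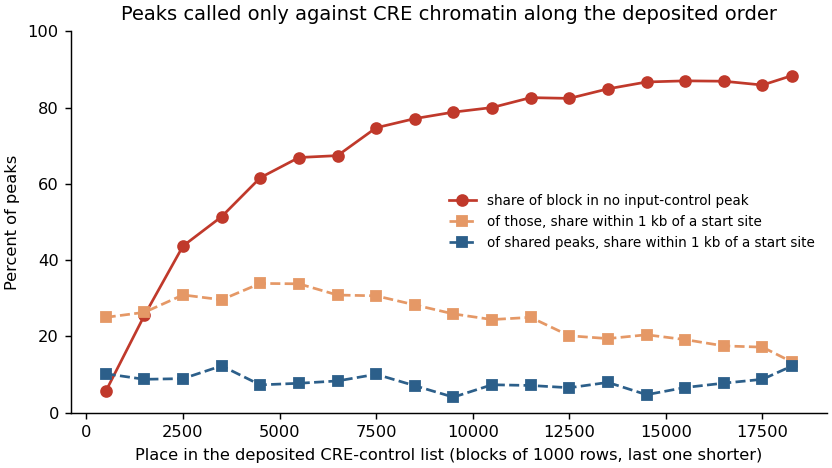
Along the deposited knockout-control list (x axis, place in blocks of 1000 rows), the percent of peaks in no input-control peak, and the percent of these and of shared peaks within 1 kb of a RefSeq start. The first rises from 5.60% to 88.4%, while the start share of CRE-control-only peaks is above that of shared peaks in each block and close to it in the last.

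The earliest CRE-control-only peak, at place 247, lay in Klf13, a Kruppel-like factor gene, 410 bp from an input-control peak (chr7:63911433-63911641). Klf13 was at 212, 231 and 210 CPM in the GFP livers and 123, 159 and 145 CPM in the CRE livers at ZT10, with no overlap, and was lower over the 6 times by a log2 difference of -0.54 (SE 0.0538, edgeR adjusted p = 1.28e-08). The next, at place 266, lay in Rbms1, an RNA-binding protein gene, 32 bp from an input-control peak, and Rbms1 had a log2 difference of -0.0041 (adjusted p = 0.968). Of the genes nearest to the 12 earliest peaks, 7 passed the test, beside 14.6% of all tested genes: Klf13, B4galnt1 and Efhd2 were lower in CRE livers, and Hjurp, Lamb3, 2010003K11Rik and Apol7a were higher. The log2 difference was largest in Lamb3, a laminin chain gene, at 0.78 (adjusted p = 0.000281). The other 5 did not pass: Rbms1, Slco2b1, Sh3pxd2a, Cbs and Gm21992. All 12 genes also had an input-control peak within 25 kb, and of all tested genes with both kinds of peak 21.0% passed.

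To ask whether expression near these sites depended on GR, tested genes were split by the peaks within 25 kb of the gene: 2954 of 15712 had CRE-control-only peaks and no input-control peak, 7147 had both, 2603 had input-control peaks only and 3008 had neither. Genes with CRE-control-only peaks alone were shorter (median 15.7 kb, against 26.5 kb with both and 22.6 kb over all) and lower expressed (median 8.46 CPM in GFP livers at ZT10, against 23.9 and 12.1). A CRE-control-only peak lay within 1 kb of the start in 922 of 2358 of them that the start table holds (39.1%), in 32.7% of genes with both kinds of peak, and in 22.5% of all tested genes it holds, which include the genes with no such peak within 25 kb. This share grew with expression over all genes, from 8.69% in the lowest of 5 equal groups by CPM to 18.7%, 25%, 29.5% and 30.7% in the highest. The share of genes with an input-control peak at the start was 4.77% and 22.9% in the lowest and the highest of the 5 groups.

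A smaller share of the genes near CRE-control-only peaks alone than of all genes passed the test in CRE livers. In edgeR's quasi-likelihood test over the 6 times, 217 of the 2954 passed an adjusted p of 0.05 (7.35%), beside 14.6% of all tested genes. Of the 217, 125 were higher in CRE livers (4.23%, beside 7.92% of all) and 92 were lower (3.11%, beside 6.64% of all). Their median log2 difference was -0.0098 and that of all genes -0.0043. Genes with neither kind of peak stood at 5.65%, genes with input-control peaks only at 15.5% and genes with both at 21.0%. With the 6 libraries left out in which 1 ribosomal-type row, NR_046233, took over 20% of counts (none of GFP ZT10 and 1 of GFP ZT12 then remained), 98 of 3078 passed (3.18%), beside 8.36% of all genes in that fit.

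The share of genes lower in CRE livers went with shared peaks. Of genes with a shared peak 14.6% were lower, and of genes with a CRE-control-only peak and an input-only peak but no shared peak 4.72%. Genes with an input-only peak and neither of the others stood at 3.71% lower. Among genes with a shared peak, those that also had a CRE-control-only peak were lower in 15.3% (of 3543) and those without one in 12.0% (of 957). Seen from the genes, 77.0% of those lower in CRE livers, 73.2% of those higher and 62.5% of those that did not pass had a CRE-control-only peak within 25 kb. A shared peak was near 62.9%, 39.3% and 25% of them. These shares were not tested, since genes are no replicates.

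**Figure D4:**
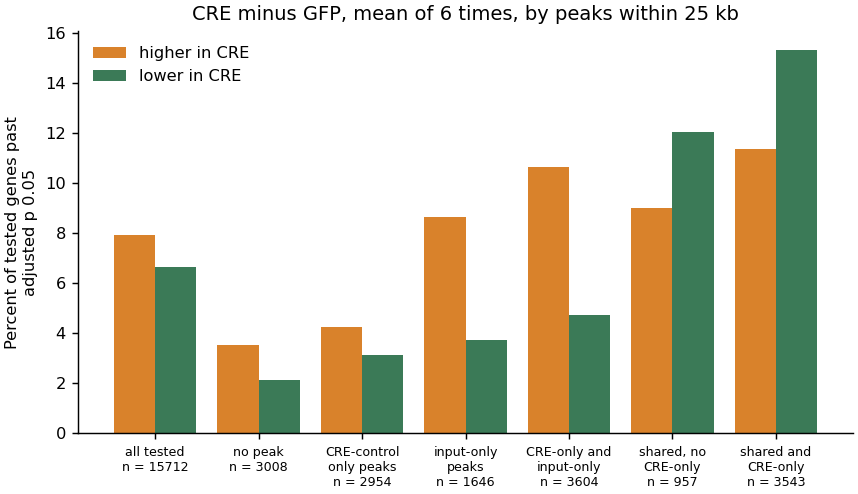
Percent of tested genes past an adjusted p of 0.05 in CRE minus GFP livers over 6 times (y axis), higher and lower apart, for genes grouped by the peaks within 25 kb, with the number of genes under each pair of bars. Genes with CRE-control-only peaks alone stand at 4.23% higher and 3.11% lower, and genes with shared and CRE-control-only peaks at 11.4% and 15.3%.

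The share that passed also rose with expression. In genes with CRE-control-only peaks alone it was 3.36%, 7.16%, 8.06%, 8.63% and 12.0% from the lowest to the highest of the 5 groups by CPM, and over all genes 5.06%, 10.5%, 13.3%, 17.3% and 26.7%. It was 8.46% of the 922 genes with the peak within 1 kb of the start and 6.83% of the 1436 without. With 1, 2 and 3 or more CRE-control-only peaks it was 6.88%, 9.36% and 5.98%. Genes with neither kind of peak were lower expressed (median 3.87 CPM in GFP livers at ZT10). From the lowest to the highest of the 5 groups by CPM, 2.71%, 6.02%, 9.08%, 6.49% and 9.24% of them passed.

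At ZT10, the hour of the ChIP, 6 of the 2954 genes passed (0.203%), beside 0.694% of all tested genes. All 6 were higher in CRE livers, as were 0.223% of all. They were Hmox1, Adcy6, Adgrg5, Ddx11, Cryz and Ddx17, the last 2 named after their values were seen. In edgeR 0 were lower, beside 0.471% of all genes. At an unadjusted p under 0.05, 97 were lower (3.28%, beside 5.19% of all), and DESeq2 called 3 lower, beside 127 of all. At ZT10 NR_046233 took 23.8% to 28.2% of counts in the 3 GFP livers and 28.5%, 8.0% and 18.5% in the CRE livers. With that share as a covariate, 1 of the 6, Adgrg5, passed at ZT10 (adjusted p = 0.0382), beside 0.331% of all genes. The other 5 kept their direction, with adjusted p of 0.0693 (Cryz and Ddx11), 0.0704 (Ddx17), 0.122 (Hmox1) and 0.166 (Adcy6). Without CRE replicate 2 or without GFP replicate 1 the count at ZT10 was 1. Counts without 1 library, here and at the other times, stand without the share of all genes in that fit.

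At ZT12 34 of the 2954 genes passed (1.15%, beside 3.75% of all), 22 higher (beside 1.5% of all) and 12 lower (beside 2.25%). NR_046233 took 22.9%, 24.5% and 4.52% of counts in the GFP livers at ZT12 and 3.62% to 7.38% in the CRE livers. With its share as a covariate 6 passed at ZT12, 3 higher and 3 lower, beside 1.53% of all. Without the 6 libraries high in that row 3 passed, 1 higher and 2 lower, beside 0.640% of all. Without CRE replicates 1, 2 and 3 the count was 13, 9 and 17, and without GFP replicates 1 and 2 it was 19 and 8. At ZT13, after feeding, 43 passed (1.46%, beside 5.04% of all), 24 higher (beside 1.89%) and 19 lower (beside 3.15%). The ZT13 count was 15, 17 and 94 without GFP replicates 1, 2 and 3 and 24 and 28 without CRE replicates 1 and 3. Whether calls over all genes moved likewise is not given here, so these shifts are not read as particular to these genes. At ZT14 18 passed (0.609%, beside 1.57% of all), 7 higher (beside 0.586%) and 11 lower (beside 0.987%). The ZT14 count was 5, 4 and 3 without CRE replicates 1, 2 and 3 and 2 without GFP replicate 1, and 10 without the 6 libraries.

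At ZT18 edgeR called 0 of the 2954, beside 0.102% of all genes. At an unadjusted p under 0.05, 135 were lower (4.57%, beside 4.45% of all) and 78 higher (2.64%, beside 3.70%), and DESeq2 called 4, beside 80 of all. At ZT22 4 passed, beside 0.146% of all, and these were all higher (beside 0.0891%): Mcm5 and Mcm6, subunits of the replicative helicase, Uck1 and Slc6a16, all but Uck1 named after their values were seen. The ZT22 count was 1 without CRE replicate 1, CRE replicate 3 or GFP replicate 2, and 1 (Mcm5) without the 6 libraries high in NR_046233, none of which is of ZT22. The CRE effect differed among the 6 times in 7 of the 2954 genes (0.237%, beside 0.687% of all).

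Among the genes lower in CRE livers over the 6 times, the largest differences were in Arhgap5, a GTPase-activating protein, and Atf5, a stress-response transcription factor. Arhgap5 has 1 CRE-control-only peak, just outside the gene (chr12:52503408-52503616), and no input-control peak within 28471 bp of it. At ZT13 Arhgap5 was at 163, 202 and 170 CPM in GFP livers and 82.7, 113 and 97.0 CPM in CRE livers, without overlap. At ZT18 it was at 110, 82.0 and 102 CPM and 100, 88.2 and 97.1 CPM, with full overlap. Its log2 difference was -0.43 over the 6 times (SE 0.0505, edgeR adjusted p = 3.10e-07), -0.87 at ZT13 and -0.045 at ZT18, and the difference among times passed the test (adjusted p = 0.0272).

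Atf5 has its CRE-control-only peak 18 bp past the nearest start, inside the gene (chr7:44816432-44816640). It was at 75.9, 70.8 and 66.7 CPM in GFP livers and 53.5, 53.8 and 45.4 CPM in CRE livers at ZT10, and at 110, 129 and 117 against 61.0, 69.2 and 94.4 CPM at ZT18. Neither pair of groups overlapped, and the log2 difference over the 6 times was -0.40 (SE 0.0725, edgeR adjusted p = 0.000188). No single time passed for Atf5.

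The other 8 lower genes, chosen by size among those with the same direction of the means at each time, had log2 differences from -0.33 to -0.23. Sfi1, a centrosome protein, stood at -0.33, Mrpl34, a mitochondrial ribosomal protein, at -0.33 and Scd2, a stearoyl-CoA desaturase, at -0.32. Ctsz, a lysosomal protease, stood at -0.28, Polr1c, a subunit of RNA polymerases I and III, at -0.27, and Apom, an apolipoprotein of high-density lipoprotein, at -0.26. Cdhr5, a cadherin-related protein, stood at -0.25 and Aspdh, an aspartate dehydrogenase, at -0.23. Their adjusted p ranged from 0.000153 (Apom) to 0.0189 (Sfi1). Without the 6 libraries high in NR_046233, Sfi1 (-0.23, adjusted p = 0.300), Mrpl34 (-0.32, 0.0528), Scd2 (-0.28, 0.0793) and Polr1c (-0.19, 0.0908) no longer passed.

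For Mrpl34, whose promoter is printed above, the GFP livers at ZT18 were at 19.4, 13 and 16.5 CPM and the CRE livers at 9.02, 11.4 and 13.7 CPM, which overlap. For Apom, with 2 CRE-control-only peaks outside the gene, the GFP livers were at 96.4, 83.6 and 82.2 CPM and the CRE livers at 56.9, 71.6 and 59.4 CPM at ZT18, without overlap. The fall of Apom passed at ZT14 (log2 difference -0.50, edgeR adjusted p = 0.0184).

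Among the genes higher in CRE livers, Rarres1, a retinoid-responsive gene, had a log2 difference of 0.86 (SE 0.180, edgeR adjusted p = 0.000980) and 2 CRE-control-only peaks outside the gene. Its levels varied widely, with 33.3, 42.2 and 17.4 CPM in GFP livers and 62.1, 80.0 and 58.2 CPM in CRE livers at ZT18. These did not overlap, but at ZT10 they did, with 64.5, 33.7 and 52.6 against 58.2, 72.5 and 47.3 CPM for Rarres1.

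Uck1, a uridine-cytidine kinase, has 4 CRE-control-only peaks, 1 of them inside the gene and 345 bp from a start. It was at 25, 18.3 and 12.3 CPM in GFP livers and 45.2, 32.6 and 37.3 CPM in CRE livers at ZT22, and at 12.7, 14.9 and 11.5 against 13.9, 16.5 and 11.1 CPM at ZT10. The groups were apart at ZT22 and overlapped at ZT10. The log2 difference for Uck1 was 0.55 over the 6 times (SE 0.0801, edgeR adjusted p = 1.09e-05) and 1.05 at ZT22 (adjusted p = 0.0164). Uck1 also passed at ZT12 (0.68, adjusted p = 0.0499) and ZT13 (0.66, adjusted p = 0.0396). With the share of NR_046233 as a covariate its ZT12 value did not pass (adjusted p = 0.378). Its difference among times did not pass (adjusted p = 0.422). Without the 6 libraries high in NR_046233 the ZT22 value of Uck1 was also 1.05 and did not pass (adjusted p = 0.0530).

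Hmox1, the heme oxygenase gene, has 4 CRE-control-only peaks within 25 kb, all outside the gene, and no input-control peak within 77646 bp of any of them. At ZT10 it was at 6.88, 12.8 and 12.0 CPM in GFP livers and 17.7, 21.0 and 19.0 CPM in CRE livers, and at ZT12 at 7.26, 8.93 and 6.59 against 16.6, 22.6 and 12.3 CPM. The groups were apart at both unfed times and overlapped at ZT14. At ZT13, with food, they were narrowly apart, with GFP livers up to 14.2 CPM and CRE livers from 14.4 CPM. Hmox1 did not pass there (edgeR adjusted p = 0.0903). The log2 difference of Hmox1 was 0.89 at ZT10 (SE 0.219, edgeR adjusted p = 0.0466), 1.20 at ZT12 (adjusted p = 0.000824) and 0.52 over the 6 times (adjusted p = 5.37e-05). All 3 GFP livers of ZT10 were high in NR_046233, and with its share as a covariate Hmox1 stood at 0.93 at ZT10, which did not pass (adjusted p = 0.122), and at 1.24 at ZT12, which did (adjusted p = 0.00755). The difference among times did not pass (adjusted p = 0.138).

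Adcy6, an adenylyl cyclase gene, also has 4 CRE-control-only peaks, all outside the gene. It was at 32.0, 47.3 and 37.5 CPM in GFP livers and 57.8, 67.1 and 67.4 CPM in CRE livers at ZT10, without overlap. The log2 difference of Adcy6 was 0.72 at ZT10 (SE 0.168, edgeR adjusted p = 0.0298) and 0.46 over the 6 times (adjusted p = 1.11e-05). When the share of NR_046233 was added as a covariate, the ZT10 value of Adcy6 was 0.62 and did not pass (adjusted p = 0.166). At ZT13 Adcy6 passed without the covariate (0.57, edgeR adjusted p = 0.0376) and with it (0.58, adjusted p = 0.0276). Its difference among times did not pass (adjusted p = 0.752). In C57BL/6 livers Adcy6 was lower in fed than in unfed mice, by a log2 difference of -0.45 over the 4 times (SE 0.0656, adjusted p = 6.43e-06).

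Tdp2, a DNA repair phosphodiesterase, and Nup210, a nuclear pore protein, were higher by log2 differences of 0.54 and 0.53 (edgeR adjusted p = 6.51e-08 and 5.07e-06). Ddx11, a DNA helicase, was at 5.28, 5.71 and 6.14 CPM in GFP livers and 9.12, 9.95 and 9.19 CPM in CRE livers at ZT10. Those groups did not overlap, and its log2 difference was 0.73 at ZT10 (SE 0.155, adjusted p = 0.0153) and 0.19 over the 6 times (adjusted p = 0.0252). Without the 6 libraries high in NR_046233, which hold all 3 GFP livers of ZT10, Ddx11 stood at 0.080 over the times left (adjusted p = 0.606), and with the share of that row as a covariate its ZT10 value was 0.71 (adjusted p = 0.0693).

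Adgrg5, an adhesion receptor gene, was at 0 counts in the 3 GFP livers at ZT10 and at 0.526, 0.467 and 0.504 CPM in the CRE livers (6 to 20 counts). Set against 3 counts per library, the upper limit that a count of 0 allows (counting error only), this is at least 1.98-fold higher. At ZT18 Adgrg5 was at 0.825, 0.355 and 0.446 CPM in GFP livers and 0.0764, 0.359 and 0.210 CPM in CRE livers, which overlap. Its difference among times passed the test (edgeR adjusted p = 0.0257) and its difference over the 6 times did not (adjusted p = 0.112). All 3 GFP livers of ZT10 were high in NR_046233, and with its share as a covariate Adgrg5 still passed at ZT10 (adjusted p = 0.0382).

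**Figure D5:**
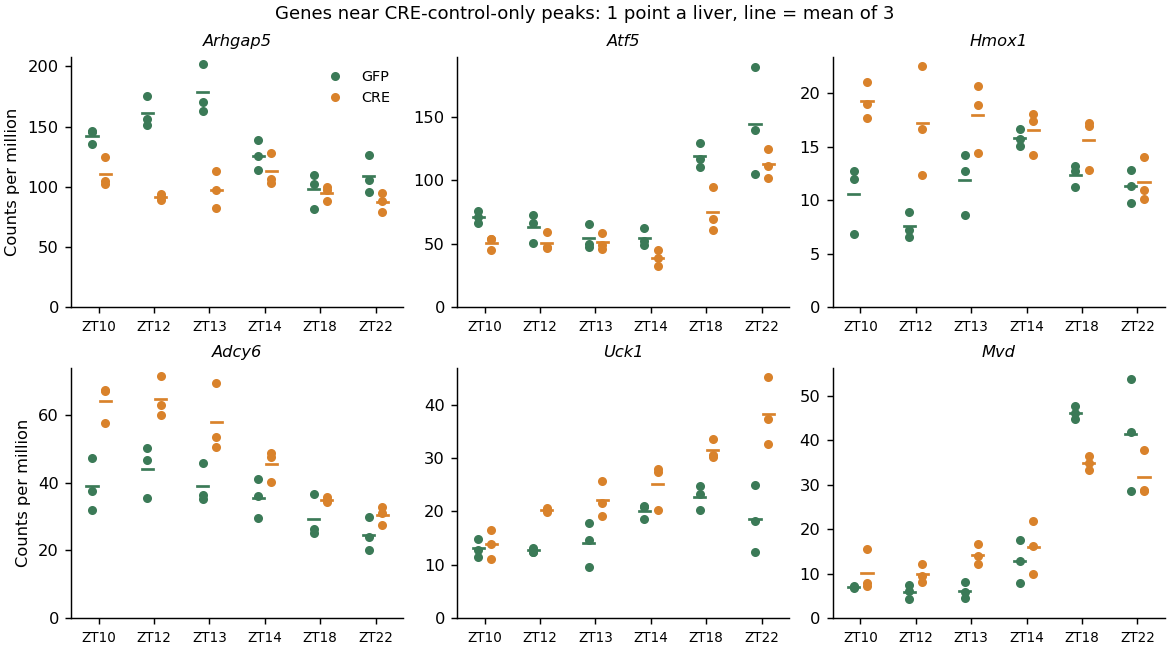
Levels in CPM (y axis, from 0) in each GFP and CRE liver at the 6 times for Arhgap5, Atf5, Hmox1, Adcy6, Uck1 and Mvd, each with CRE-control-only peaks and no input-control peak within 25 kb; lines are means of 3 livers. GFP and CRE livers are apart at ZT10 for Arhgap5, Atf5, Hmox1, Adcy6 and Mvd and overlap for Uck1. Of the genes with livers apart, Arhgap5, Atf5 and Mvd did not pass at ZT10 (edgeR adjusted p = 0.213, 0.273 and 0.491). For Mvd the highest GFP liver was at 7.12 CPM and the lowest CRE liver at 7.19 CPM. All 3 GFP livers of ZT10 were high in NR_046233.

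Genes near CRE-control-only peaks alone differed between fed and unfed C57BL/6 livers in a smaller share than all tested genes. Over the 4 times 868 of 2804 passed (31.0%), beside 35.4% of all tested genes. Of these 520 were higher in fed livers (18.5%, beside 17.5% of all) and 348 were lower (12.4%, beside 17.9% of all). Genes with both kinds of peak were lower in 23.5% and higher in 19.3%. The median log2 difference was 0.033 for genes with CRE-control-only peaks alone and 0.0084 for all genes.

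Among the genes that rose most in fed livers were Mvd, Sdf2l1 and Manf. Mvd, an enzyme of sterol synthesis, has a CRE-control-only peak over its start (chr8:122443236-122443444), 130992 bp from the nearest input-control peak. It was at 8.10, 6.15 and 5.46 CPM in unfed livers and 82.8, 94.5 and 104 CPM in fed livers at ZT18. The groups were far apart, and the log2 difference of Mvd was 2.24 over the 4 times (SE 0.108, edgeR adjusted p = 1.03e-13). In fed Nr3c1fl/fl livers at ZT13 it was at 5.80, 4.46 and 8.21 CPM with GFP and 12.1, 16.6 and 13.9 CPM with CRE (log2 difference 1.20, adjusted p = 0.0103), and over the 6 times the log2 difference of Mvd was 0.34 (adjusted p = 0.0527). At ZT18 and ZT22, also fed, Mvd had the opposite sign. Its log2 differences there were -0.40 and -0.39 and did not pass (edgeR adjusted p = 0.746 and 0.655). The difference among times did not pass for Mvd either (edgeR adjusted p = 0.119).

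Sdf2l1, an endoplasmic reticulum chaperone gene whose promoter is printed above, was at 14.3, 16.1 and 6.55 CPM in unfed livers and 66.4, 70.3 and 68.5 CPM in fed livers at ZT18. Manf, an endoplasmic reticulum stress gene, was at 57.1, 51.2 and 28.2 against 200, 193 and 208 CPM. For neither gene did the groups overlap. The log2 differences over the 4 times were 1.71 for Sdf2l1 and 1.23 for Manf (edgeR adjusted p = 2.44e-09 and 4.23e-09). In CRE minus GFP livers over the 6 times they were 0.051 and 0.17 and did not pass (adjusted p = 0.801 and 0.250).

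The genes that fell most in fed livers were Slc25a34, a mitochondrial carrier, Calcoco1, an autophagy-linked coiled-coil protein, Dyrk1b, a protein kinase, and Smad7, an inhibitor of TGF-beta signalling. Calcoco1 was at 42.9, 40.8 and 54.4 CPM in unfed livers and 13.9, 17.7 and 19.8 CPM in fed livers at ZT18, without overlap. The log2 differences over the 4 times were -0.98 for Slc25a34, -0.96 for Calcoco1, -0.76 for Dyrk1b and -0.74 for Smad7 (edgeR adjusted p from 4.25e-10 to 3.27e-05). None passed in CRE minus GFP livers over the 6 times, where they stood at 0.11, 0.077, 0.18 and -0.13.

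The 4 genes with the most CRE-control-only peaks inside them did not pass in CRE minus GFP livers over the 6 times. Tet3 stood at a log2 difference of 0.071 (edgeR adjusted p = 0.251), Gpr39 at 0.17 (adjusted p = 0.155), Ripor1 at 0.098 (adjusted p = 0.136) and Dnajc17 at -0.10 (adjusted p = 0.469). In fed livers Tet3 was lower (log2 difference -0.40, adjusted p = 5.31e-06) and Gpr39 higher (log2 difference 0.63, adjusted p = 1.70e-05).

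Over all tested genes, 64.3% had a CRE-control-only peak within 25 kb, and 70.8% of those also had an input-control peak there, so counts in gene lists stand beside these shares. Of a list of 25 long-known GR targets, 23 had a CRE-control-only peak, and all 23 also had an input-control peak. Of the 23, 21 were lower in CRE livers and 1 higher (beside 6.64% and 7.92% of all tested genes). The list was chosen for its dependence on GR, so its direction is no independent evidence. Zbtb16, a zinc-finger repressor, had 8 CRE-control-only and 15 input-control peaks, and Fkbp5, a chaperone that restrains GR, had 6 and 16. Pfkfb3, which makes an activator of glycolysis, had 6 and 6, with 1 CRE-control-only peak at a start, and Lpin1, a phosphatidate phosphatase, had 4 and 5. Pck1 and Igfbp1 had none.

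At ZT10 Zbtb16 was at 426, 325 and 391 CPM in GFP livers and 56.4, 44.2 and 29.0 CPM in CRE livers, with a log2 difference of -2.17 over the 6 times (edgeR adjusted p = 5.62e-13). Pfkfb3 was at 70.3, 94.0 and 53.4 against 34.7, 23.9 and 21.5 CPM, with a log2 difference of -0.91 (adjusted p = 5.36e-08). Pck1, the rate-limiting enzyme of gluconeogenesis with no CRE-control-only peak, was at 2103, 1911 and 1578 against 859, 787 and 947 CPM, with -0.79 (adjusted p = 1.09e-06). The groups of these 3 genes did not overlap.

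In other lists of liver genes the counts stand beside the same 64.3% and 70.8%. All 18 clock genes and all 16 hepatocyte transcription factors had a CRE-control-only peak within 25 kb, but 1 clock gene (Arntl) and 0 of the factors had no input-control peak beside it. Of the 16 gluconeogenesis genes 12 had a CRE-control-only peak, and 2 (Creb1 and Crtc2) had no input-control peak. Of the 20 genes of fatty acid and triglyceride synthesis 17 had one, and 1 (Dgat1) no input-control peak. Of the 21 genes of fatty acid oxidation and ketogenesis 17 had one, and 2 (Acadl and Acadvl) no input-control peak. Of the marker lists, 7 of 8 hepatocyte genes, 3 of 11 Kupffer cell genes, 6 of 10 endothelial genes and 2 of 10 stellate cell genes had one. Of these marker genes, C1qb, C1qc, Kdr, Cdh5 and Col1a1 had no input-control peak beside it. No gene of these lists with CRE-control-only peaks alone passed in CRE minus GFP livers over the 6 times. Of all genes with such peaks alone 7.35% passed, and the genes named here are too few to differ visibly from that share.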

How the data were processed

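The authors deposited raw counts per RefSeq transcript for each liver library and lists of GR peaks with chromosome, start and end only. STAR, HOMER and DESeq2 and the build mm10 are named, per the submitters' processing notes, with versions and peak thresholds not given in the sources used here. RNA of Nr3c1fl/fl livers was depleted of ribosomal RNA, per the labels. Peak starts were read as counting from 0. Of 40458 rows, 40218 matched the RefSeq gene table of GRCm38.p6 by accession, giving 24789 genes, and the row with the highest total stood for a gene. Rows without a match were left out, with 0.308% to 2.24% of counts in C57BL/6 libraries and 2.43% to 28.6% in Nr3c1fl/fl libraries. The gene intervals carry no strand and the start table does not cover each chromosome. Strand use in counting is not given, so overlapping and antisense genes cannot be told apart. Rat hepatocytes were not used here.

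Counts of each mouse table were fitted as a whole with edgeR 4.0.16 (TMM, filterByExpr, quasi-likelihood F-test) in R 4.3.3, with Benjamini-Hochberg adjustment over all genes tested and a threshold of 0.05. DESeq2 1.42.0 was an alternative. All groups of a table shared 1 estimate of the spread. Whether livers are separate animals is taken from the labels' replicates, so p-values measure the spread between these samples. On simulated counts for the Nr3c1fl/fl table, 99% of genes changed by a log2 difference of 1 were recovered and 0.0519% of unchanged genes were called. Smaller differences were not simulated, and no separate rate is given for single times or for genes with low counts. The 99% is therefore no measure of the power behind the counts at single times, for low-count genes or for log2 differences below 1. Samples with the same replicate number did not deviate together (median correlation 0.00625 over 198 pairs in Nr3c1fl/fl livers), so no block was used.

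Named genes had CRE-control-only peaks and no input-control peak within 25 kb, and were those with the largest differences past the threshold at a mean of 5 CPM or more with 1 direction at each time (10 lower and 6 higher for CRE, 4 each way for feeding), up to 4 at ZT10 with groups apart, and the 4 with most peaks inside. Of the genes this rule chose, 1 is not reported here. The peaks, gene lists and tests were chosen with earlier results of these data known. Alternatives were other distances, DESeq2, no filter on low counts, another row for a gene, the NR_046233 share as a covariate, a replicate block and leaving out each library. Leaving out the 6 libraries high in NR_046233, or 2 C57BL/6 libraries, was chosen after seeing the data.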

Additional observations from a re-analysis of the deposited data

Results flagged for a closer look

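The CRE effect on Arhgap5 differed among the 6 times (edgeR F-test of the differences, adjusted p = 0.0272): its log2 difference was -0.82 at ZT12 and -0.87 at ZT13 and between -0.37 and -0.045 at the other times. The effect on Adgrg5 also differed among times (adjusted p = 0.0257). CRE livers were the higher at ZT10 and ZT12, and at the other 4 times the mean of GFP livers was the higher, at levels under 1 CPM throughout. Part of the difference at Adgrg5 rests on the GFP livers of ZT10, all at 0 and all high in NR_046233 (23.8% to 28.2% of counts). With the share of that row as a covariate its ZT10 difference still passed (adjusted p = 0.0382), and the difference among times was not tested that way.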

How the results depend on the processing

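The number of CRE-control-only peaks was 14420 when an overlap of 50% was asked for, 10561 when input-control peaks within 1 kb were avoided and 12763 with starts counted from 1. The other counts are of called genes with CRE-control-only peaks alone. With peaks within 100 kb (1208 genes) they were 74 over the 6 times, 2 (ZT10), 14 (ZT12), 9 (ZT13), 10 (ZT14), 2 (ZT22) and, for feeding, 313. With peaks within 10 kb they were 11 at ZT10 (6 higher, 5 lower) and 2 at ZT18. The distance changes the class and not the test, so the shares of all genes called are those given above. DESeq2 gave 12, 75, 35, 4 and 12 for ZT10, ZT13, ZT14, ZT18 and ZT22. Over all genes DESeq2 called 70 higher and 127 lower at ZT10, 460 and 601 at ZT13, and 169 and 248 at ZT14. At ZT18 these were 22 and 58, and at ZT22 58 and 34. With the NR_046233 share as a covariate they were 1 (ZT10) and 6 (ZT12). When the 6 libraries high in that row were left out they were 98 over the times left, 3 at ZT12, 10 at ZT14 and 1 at ZT22. With no filter on low counts ZT14 gave 11. The cause of these shifts was not tested, apart from fewer genes in a class at 100 kb. Leaving out 1 library each gave 182 to 237 over the 6 times, 1 to 6 for ZT10, 8 to 33 for ZT12, 15 to 94 for ZT13, 2 to 19 for ZT14, 0 throughout for ZT18, 1 to 6 for ZT22 and 793 to 895 for feeding. With a replicate block the counts were 221 over the 6 times, then 6, 27, 45, 15, 0 and 4 from ZT10 to ZT22, and 864 for feeding, and it changed no count by over 1.5 times. The counts with the block, without 1 library or without the filter stand without the share of all genes in the same fit. They show how far the count moves and nothing particular to these genes. No named gene changed direction over the 6 times or in feeding under an alternative. With the NR_046233 share as a covariate, Hmox1, Adcy6 and Ddx11 did not pass at ZT10 (edgeR adjusted p = 0.122, 0.166 and 0.0693). Such losses at single times are not in the count that follows, which is of the 6 times and feeding. The 5 that no longer passed are those given in the report, all without the 6 libraries, and 16 values that had not passed did under 1 alternative or another. The share of peaks inside genes was 72.0% and that over 25 kb away 3.54% at the 50% overlap. With 1 ChIP library of each kind, no peak has a replicate check.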

Other observations

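CRE-control-only peaks were unevenly spread over chromosomes. They made up 74.5% of knockout-control peaks on chromosome 7, 73.6% on chromosome 11 and 55.8% on X (86 of 154). Per megabase of annotated span there were 8.08 on chromosome 11, 3.47 on chromosome 3 and 0.504 on X. Input-control peaks stood at 10.9, 9.01 and 2.33 per megabase in the same order, so they were also fewest on X among these. Annotated genes stood at 25.3, 15.4 and 14.7 per megabase.

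Of 408 annotated tRNA genes, 26 had a CRE-control-only peak within 200 bp, 17 an input-only peak and 0 a shared peak.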
